A study of Mus musculus with 6 samples.

Results

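The genes described here control the breakdown of fibrin and the start of clotting at the cell surface. They are the plasminogen activators Plau and Plat, their substrate Plg, the urokinase receptor Plaur, the inhibitors Serpine2 and Serpinf2, and tissue factor (F3) with its counterparts Tfpi and Thbd. They were chosen by symbol for their known roles, and all 9 were matched among the 54532 Ensembl genes of the count table. RNA of whole liver was sequenced from 6 ethanol-fed mice. The 3 KO mice were LysMcre/+ Cd44flox/flox, so that Cre expressed from the lysozyme M locus can delete Cd44, the hyaluronan receptor, in myeloid cells. The 3 WT mice were their littermates without Cre (LysM+/+) and carried the same floxed Cd44 alleles. All were on the C57BL/6J/Rj background and had the Lieber-DeCarli diet, in which 6% of the volume is ethanol, for 10 days. Livers were taken on day 11, 9 hours after a gavage of 5 g/kg ethanol. Livers without ethanol, or with Cre and intact Cd44, were not analysed here, so Cre and the altered lysozyme locus cannot be told apart from Cd44 loss. The sources used here do not give age or sex.

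Fibrin clots are dissolved by plasmin, a protease that the urokinase-type (Plau) and tissue-type (Plat) activators cut from plasminogen. Hepatocytes secrete plasminogen and its fast plasma inhibitor, α2-antiplasmin (Serpinf2), whereas the activators are made by endothelial, stromal and myeloid cells. Plaur anchors urokinase at the cell surface, and protease nexin 1 (Serpine2) blocks both activators and thrombin. Clotting starts when tissue factor binds factor VIIa. Tissue factor pathway inhibitor (Tfpi) shuts off this complex, and thrombomodulin (Thbd) turns thrombin into an activator of protein C. In mice, fibrin deposition and fibrinolysis have both been studied as parts of alcohol-related liver injury.

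Library totals ran from 18428224 to 24042917 counts. Levels are given as CPM, counts scaled to a common library size. Cd44 stood at 2.11, 1.92 and 3.01 CPM in the 3 KO livers and at 32.6, 34.8 and 26.4 CPM in the 3 WT livers, the direction the labels give. Of 14758 genes tested with edgeR's quasi-likelihood test, 1933 were lower and 1751 higher in KO livers at an adjusted p under 0.05, or 13.1% and 11.9%, together 25.0%. Scaling by library totals gave 3698 lower and 904 higher, and scaling on endothelial markers gave 935 and 1688. The hepatocyte gene Alb stood at 72352 to 96513 CPM in KO livers and at 52693 to 60299.5 CPM in WT livers, so the libraries hold liver RNA. In whole tissue, fewer cells of a type and less RNA per cell cannot be told apart.

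All 9 genes passed the filter on low counts. Plaur, Plat and Plau fell in KO livers, Plg and F3 rose, and Serpine2, Tfpi, Serpinf2 and Thbd did not pass. Thus 3 of 9 were lower, where 13.1% of all tested genes were, and 2 of 9 were higher, where 11.9% of all tested genes were. With library totals the split was 5 lower and 2 higher. The median log2 fold change was −0.72 over the 9 genes and −0.01 over all genes tested. The KO and WT values did not overlap for 7 of the 9 genes, against 43.8% of all genes tested.

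**Figure D1:**
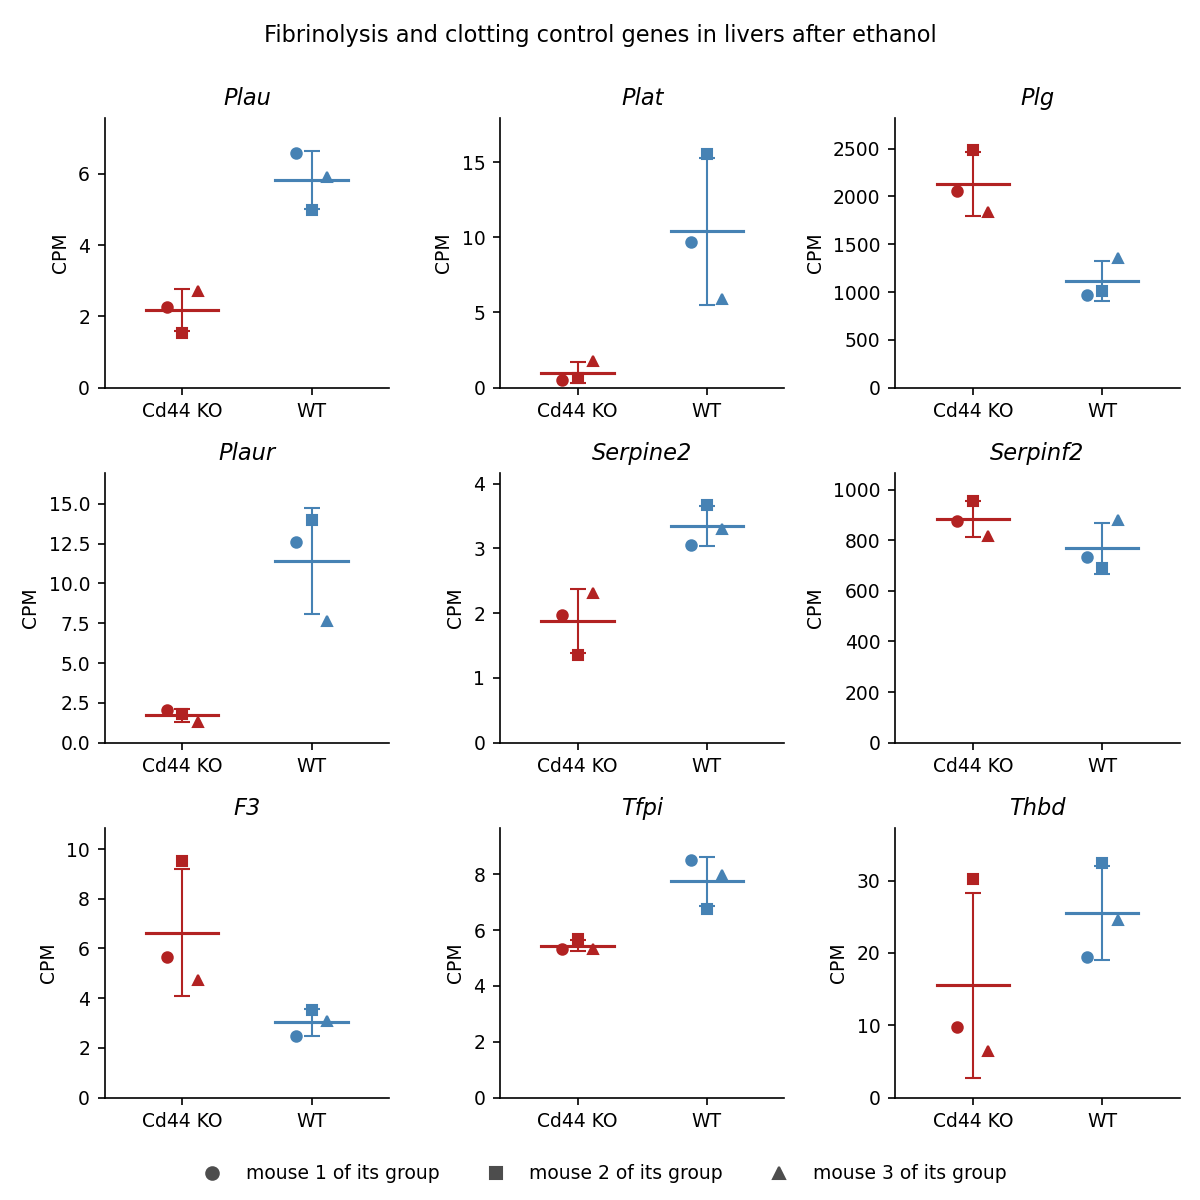
CPM of the 9 genes (vertical axes, each from 0) in 3 KO livers (left, red) and 3 WT livers (right, blue). Points are livers, horizontal lines means and bars SD. Of the 9, Serpinf2 and Thbd have overlapping groups, and the second KO liver is the highest KO liver for F3, Plg and Thbd.

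Upstream sequences are shown for Plaur and F3, which moved in opposite directions. RefSeq promoters (GRCm38.p6) were matched for 5 of the 9 genes (F3, Plaur, Serpine2, Serpinf2 and Tfpi). The 250 bases before the start of F3 lie on the plus strand at chr3:121723287-121723536, and those of Plaur on the plus strand at chr7:24462233-24462482. Capitals mark matches on either strand to the AP-1 motif TGANTCA, the SP1 motif GGGCGG and the EGR motif GCGGGGGCG, the last of which overlaps SP1 matches in Plaur.
F3: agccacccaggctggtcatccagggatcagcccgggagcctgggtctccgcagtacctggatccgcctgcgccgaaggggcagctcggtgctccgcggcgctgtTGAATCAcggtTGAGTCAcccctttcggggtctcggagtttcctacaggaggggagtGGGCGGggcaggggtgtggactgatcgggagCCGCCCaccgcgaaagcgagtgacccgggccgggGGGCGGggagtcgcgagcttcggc
Plaur: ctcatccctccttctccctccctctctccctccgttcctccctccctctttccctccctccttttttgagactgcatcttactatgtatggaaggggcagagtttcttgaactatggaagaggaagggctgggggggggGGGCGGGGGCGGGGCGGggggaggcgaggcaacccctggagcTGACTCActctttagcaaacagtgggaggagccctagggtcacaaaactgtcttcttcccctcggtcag
The F3 sequence held 2 AP-1 matches, at 146 to 140 and 135 to 129 bases before the start, and 3 SP1 matches. The Plaur sequence held 1 AP-1 match at 69 to 63 bases before the start, 3 SP1 matches and 1 EGR match. The SP1 matches lay at 111 to 106, 105 to 100 and 100 to 95 bases before the start, so that the second and the third share a base, and the EGR match at 109 to 101 overlaps the first and the second. Of 32851 promoter windows of this length, 6.75% held the AP-1 motif, 32.7% the SP1 motif and 2.57% the EGR motif. Exact matches to the strict NF-kB pattern used here, found in 4.11% of windows, were in neither sequence. The F3 sequence holds a stretch that departs from this pattern in its first letter only. Such near matches were not searched for, so the absence of an exact match does not show that an NF-kB site is lacking. The KLF motif CACCC, found in 52.0% of windows and not set in capitals, was in F3 and not in Plaur, and one of its matches overlaps the second AP-1 match. Such matches describe letters and do not show that a factor binds.

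Plat (ENSMUSG00000031538, chromosome 8, 22757727 to 22782844, plus strand, GRCm38) encodes tissue-type plasminogen activator, the main activator within fibrin clots. It stood at 0.479, 0.674 and 1.77 CPM in the KO livers and at 9.69, 15.6 and 5.91 CPM in the WT livers. Every KO liver lay below every WT liver, and the third KO liver was the highest of its group. Plat fell 10.6-fold (log2 −3.41, SE 0.51, adjusted p = 0.003). The log2 value was −4.15 without the third KO liver. With 10 to 36 counts per KO library, its KO level rests on few reads.

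Plau (ENSMUSG00000021822, chromosome 14, 20836660 to 20843385, plus strand) encodes urokinase, the activator that works mainly at cell surfaces. It stood at 2.25, 1.54 and 2.71 CPM in the KO livers and at 6.59, 4.98 and 5.91 CPM in the WT livers. The groups did not overlap, and the second KO liver was the lowest. Plau fell 2.69-fold (log2 −1.43, SE 0.26, adjusted p = 0.00591).

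Plaur (ENSMUSG00000046223, chromosome 7, 24462484 to 24475968, plus strand) encodes the receptor that holds urokinase on leukocytes and other cells. It stood at 2.06, 1.83 and 1.28 CPM in the KO livers and at 12.6, 13.98 and 7.65 CPM in the WT livers. The KO livers were close together and all below the lowest WT liver. Plaur fell 6.6-fold (log2 −2.72, SE 0.29, adjusted p = 0.000869). Of the 9 genes it had the smallest adjusted p.

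Plg (ENSMUSG00000059481, chromosome 17, 12378608 to 12419385, plus strand), the zymogen on which both activators act, moved the other way. It stood at 2060.1, 2489 and 1837 CPM in the KO livers and at 972, 1013 and 1352 CPM in the WT livers. All 3 KO livers lay above the highest WT liver. Plg rose 1.91-fold (log2 0.94, SE 0.19, adjusted p = 0.00938). Its exons overlap those of Slc22a3 on the opposite strand and counting by strand was not stated, so its counts are uncertain to that extent. Slc22a3 itself was counted at 20.8 ± 1.59 CPM in KO livers and at 8.83 ± 4.35 CPM in WT livers (SD, n = 3 each), a small part of the Plg level.

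The serpins did not pass the test. Serpine2 (ENSMUSG00000026249, chromosome 1, 79794197 to 79861180, minus strand) stood at 1.97, 1.35 and 2.32 CPM in KO livers and at 3.06, 3.68 and 3.31 CPM in WT livers. The groups did not overlap, yet the adjusted p of 0.0504 (log2 −0.83, 95% interval −1.43 to −0.23) lay just above the threshold. It was 0.0361 with DESeq2, 0.042 with limma-voom and 0.0439 without the third KO liver, and ranged from 0.0214 to 0.29 over the 15 alternatives. Serpinf2 (ENSMUSG00000038224, chromosome 11, 75431732 to 75439591, minus strand) stood at 878, 956 and 816 CPM in KO livers and at 732, 689 and 880.3 CPM in WT livers. Its groups overlapped, and the interval of its log2 fold change ran from −0.13 to 0.54 around 0.2 (adjusted p = 0.344). The direction of Serpinf2 turned to −0.05 with library totals.

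Tissue factor rose while its counterparts did not pass. F3 (ENSMUSG00000028128, chromosome 3, 121723537 to 121735048, plus strand) stood at 5.66, 9.53 and 4.73 CPM in KO livers and at 2.46, 3.53 and 3.09 CPM in WT livers. The groups did not overlap, and the second KO liver stood well above the other two. F3 rose 2.2-fold (log2 1.14, SE 0.30, adjusted p = 0.0251). The adjusted p was 0.0525 without the second KO liver (log2 0.79), 0.075 without the first WT liver and 0.0662 without the third WT liver, so the call depends on single livers.

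Tfpi (ENSMUSG00000027082, chromosome 2, 84432855 to 84476775, minus strand) stood at 5.32, 5.68 and 5.32 CPM in KO livers and at 8.5, 6.77 and 7.96 CPM in WT livers. The KO livers were nearly alike and below every WT liver. The difference had a log2 value of −0.51 (95% interval −0.88 to −0.13, adjusted p = 0.0527). It passed with library totals (adjusted p = 0.0101) and with the stricter count filter (0.0442), and over the 15 alternatives the adjusted p ranged from 0.0101 to 0.471.

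Thbd (ENSMUSG00000074743, chromosome 2, 148404466 to 148408188, minus strand) varied most, relative to its mean, within the KO group. It stood at 9.83, 30.2 and 6.51 CPM in KO livers and at 19.5, 32.4 and 24.6 CPM in WT livers. The second KO liver lay within the WT range and the other two below it. The log2 fold change was −0.72 (95% interval −1.84 to 0.41, adjusted p = 0.323), and without the second KO liver it was −1.63 (adjusted p = 0.0052). The endothelial markers of that liver were also the highest of the KO group. Their sum was 315, 453 and 309 CPM in the 3 KO livers and 375, 424 and 416 CPM in the WT livers, and their part in the Thbd value was not tested. The sinusoidal endothelial receptor gene Lyve1 stood at 15.5, 40.03 and 14.3 CPM in KO livers and at 42.9, 58.7 and 46.6 CPM in WT livers. Lyve1 was named after its values were seen and had the smallest p of the 11 endothelial markers (edgeR adjusted p = 0.0609). It does not stand for the list, whose median log2 was −0.12 and of which 0 passed by edgeR.

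**Figure D2:**
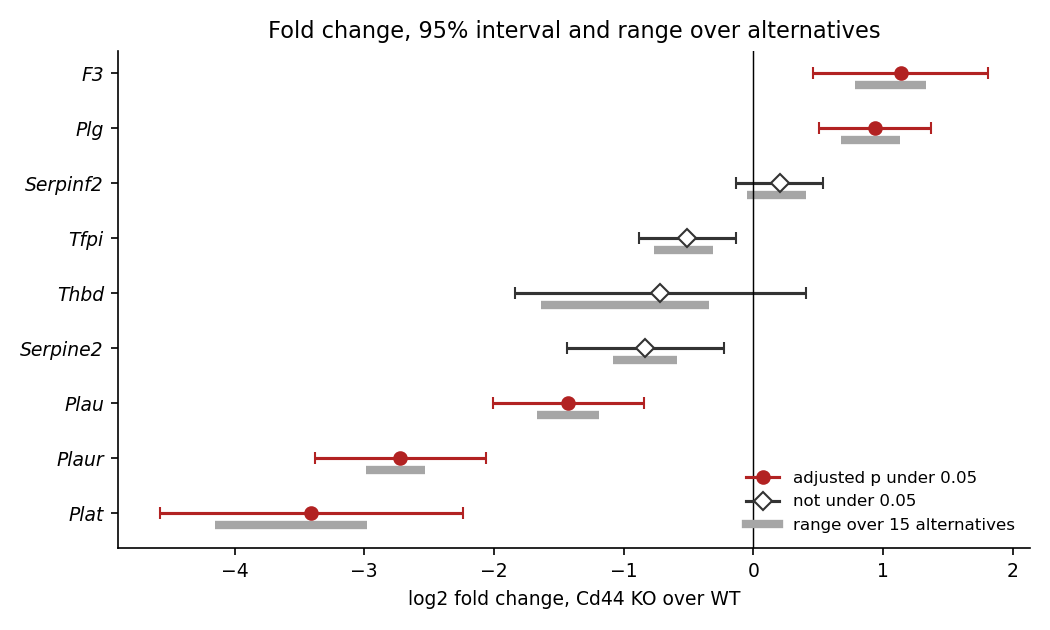
Log2 fold change of KO over WT (horizontal axis) for the 9 genes with its 95% interval (thin bars), and the range of the same value over 15 alternatives (grey bars). Red circles have an adjusted p under 0.05 and open diamonds do not. Plat, Plaur and Plau lie left of 0 and Plg and F3 right of it, with intervals and ranges that stay on one side.

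Per kilobase of exon, plasminogen and antiplasmin far exceeded the other 7 genes in both groups. Plg stood at 574 ± 89.3 RPKM (CPM divided by the exon length in kilobases) in KO livers and at 299.7 ± 56.2 RPKM in WT livers (SD, n = 3 each, here and in what follows). Serpinf2 stood at 380.03 ± 30.2 RPKM in KO livers and at 330.1 ± 43.2 RPKM in WT livers. In WT livers the mean ± SD ranges of these genes overlapped, and in KO livers they did not, with Plg above. Among the rest, the order in KO livers was Thbd (4.16 RPKM), F3 (2.63), Tfpi (0.996), Plau (0.916), Plaur (0.659), Serpine2 (0.226) and Plat (0.156). Neighbours overlapped in mean ± SD except F3 with Tfpi, Plaur with Serpine2 and, at the top, Serpinf2 with Thbd. In WT livers the order was Thbd (6.85 RPKM), Plaur (4.36), Plau (2.46), Plat (1.67), Tfpi (1.42), F3 (1.2) and Serpine2 (0.404). There the neighbours overlapped except Plg with Thbd, Plaur with Plau and F3 with Serpine2. F3 was thus the second of these 7 genes in KO livers and the sixth in WT livers, and Plat the last in KO livers and the fourth in WT livers.

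Ratios between genes of the same liver do not depend on the scaling between libraries. Of 7 such pairs, all had KO and WT values that did not overlap. The pairs share genes and so are not independent. Of single genes tested, 43.8% did not overlap in CPM, and the share over all gene pairs was not computed. With 3 livers a group the smallest two-sided p of an exact permutation test is 0.1, and each pair reached it (0.1 also after adjustment over the 7 pairs). Differences are given as the KO minus the WT mean of the log2 count ratio. Counts of F3 per count of Tfpi were 1.06, 1.68 and 0.889 in KO livers and 0.291, 0.523 and 0.39 in WT livers, a log2 difference of 1.58. Counts of F3 per count of Thbd were 0.577, 0.316 and 0.728 in KO livers and 0.127, 0.109 and 0.126 in WT livers (log2 difference 2.08). Tissue factor was therefore higher relative to both counterparts in every KO liver.

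Counts of both activators were lower relative to Serpine2 in every KO liver, by unequal amounts. Counts of Plat per count of Serpine2 were 0.253, 0.509 and 0.768 in KO livers and 3.15, 4.22 and 1.78 in WT livers (log2 difference −2.64). Those of Plau per count of Serpine2 were 1.14, 1.14 and 1.17 in KO livers and 2.15, 1.35 and 1.78 in WT livers (log2 difference −0.59). Plau per count of Plat was 4.52, 2.24 and 1.52 in KO livers and 0.681, 0.321 and 1 in WT livers (log2 difference 2.05). These count ratios are not corrected for exon length and do not say which gene had the higher level: per kilobase the mean of Plau lay above that of Plat in both groups. Plau per count of its receptor Plaur was 1.09, 0.844 and 2.09 in KO livers and 0.523, 0.358 and 0.773 in WT livers (log2 difference 1.25). Plg per count of Serpinf2 was 2.35, 2.6 and 2.25 in KO livers and 1.33, 1.47 and 1.54 in WT livers (log2 difference 0.73).

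**Figure D3:**
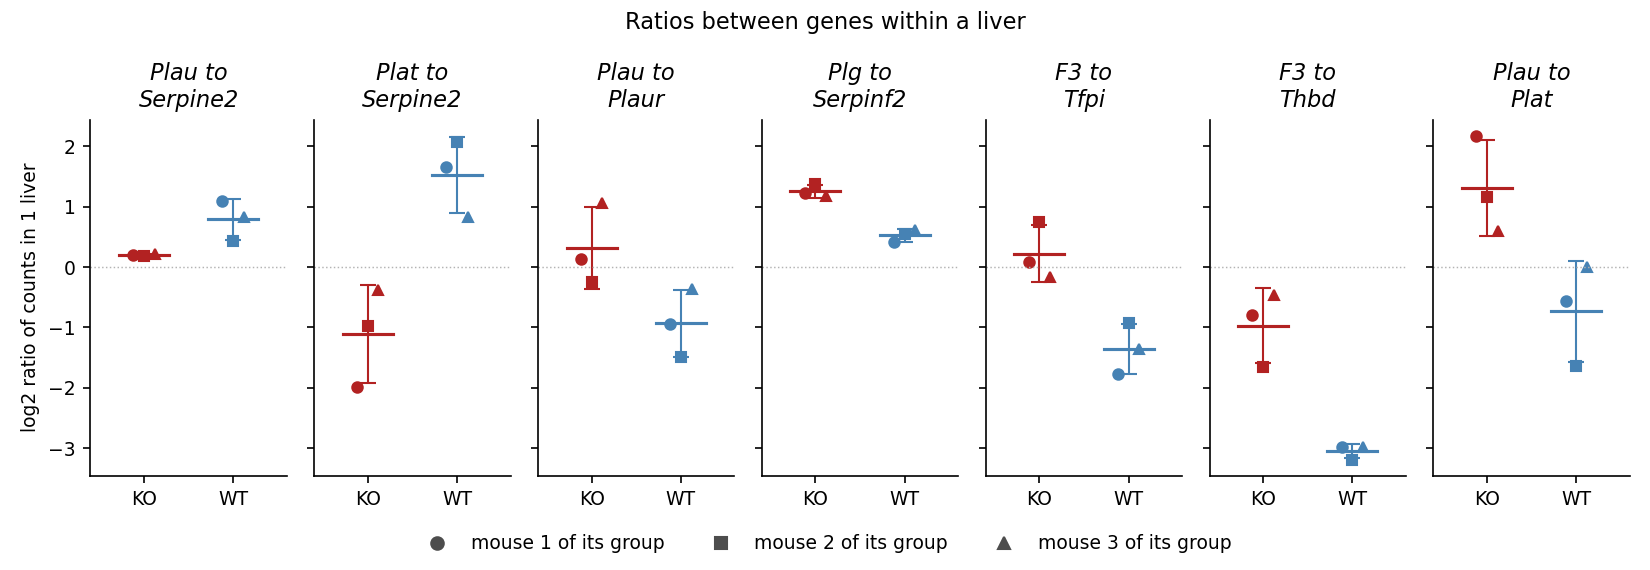
Log2 ratio of the counts of 2 genes in the same liver (vertical axis) for 7 pairs, in 3 KO livers (red, left of each panel) and 3 WT livers (blue, right). Points are livers, lines means and bars SD. In every panel the KO and WT points are separate, with the largest differences in mean for Plat to Serpine2, F3 to Thbd and Plau to Plat.

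The marker genes of cell types that can make these proteins also moved. Over all tested genes 13.1% were lower and 11.9% higher. Of 12 markers shared by myeloid cells 10 fell, with a summed level of 163 to 321 CPM in KO livers and 621 to 680.2 CPM in WT livers. This list and its sum include Lyz2 (log2 −2.16), the lysozyme M gene that carries Cre in KO mice. The part of the altered locus in the fall of Lyz2 was not tested, and no sum without it was taken. Of 11 Kupffer cell markers 9 fell (summed level 392 to 799.6 CPM in KO livers and 1261 to 1342 CPM in WT livers). Of 12 monocyte and lipid-associated macrophage markers 10 fell (95.3 to 151 CPM in KO livers and 264 to 316 CPM in WT livers). Of 8 neutrophil markers 7 were tested and 5 fell (3.07 to 8.33 CPM in KO livers and 15.5 to 30.4 CPM in WT livers). Myeloid marker transcripts were thus lower in KO livers. Without the first KO liver, 5 Kupffer and 2 neutrophil markers fell, and without the first WT liver 2 neutrophil markers fell.

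Markers of other cells moved less or the other way. Of 11 hepatocyte markers with a match 5 rose and 0 fell by edgeR, and the count was 3 without the first WT liver. The summed hepatocyte level was 105712 to 138850.2 CPM in KO livers and 76682 to 91461 CPM in WT livers. Of 11 stellate cell and fibroblast markers 5 fell and 1 rose, with a summed level of 681 to 744 CPM in KO livers and 746 to 863 CPM in WT livers. With library totals 7 fell and 0 rose. Of 11 endothelial markers 0 passed by edgeR, against 1 by DESeq2 and 1 by limma-voom, and 5 were lower with library totals (Stab1, Cdh5, Lyve1, Pecam1 and Oit3). At an unadjusted p under 0.05, edgeR gave 2. Without the second KO liver 3 endothelial markers were lower. None of 5 tested markers of cholangiocytes (7.34 to 16.8 CPM summed in KO livers, 14.6 to 19.3 CPM in WT livers) passed by any of edgeR, DESeq2 and limma-voom (edgeR gave 1 at an unadjusted p under 0.05). With library totals 1 of them (Krt19) was lower, and without the second KO liver 1 (Sox9). None of 5 tested mesothelial markers passed by the same tools, nor at an unadjusted p under 0.05 (0 genes). The summed mesothelial level was 1.49 to 5.87 CPM in KO livers and 2.82 to 8.22 CPM in WT livers. Platelet transcripts were scarce, with 2 of 7 markers tested, Gp1bb at 0 counts in every liver and a sum of 5.1 to 7.1 CPM in KO livers and 7.74 to 11.6 CPM in WT livers. Of these Pf4 alone passed in the main edgeR test, and with library totals Itga2b was lower too. Pf4 did not pass without the first KO liver (adjusted p = 0.09998) or without the first, the second or the third WT liver (0.102, 0.0605 and 0.0753).

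The genes were also set against the marker counts of the same liver. The myeloid marker counts include those of Lyz2, the locus altered in KO mice. Plau stood at 10.03, 9.47 and 8.44 counts per 1000 myeloid marker counts in KO livers and at 9.69, 8.02 and 9.35 in WT livers. These values overlapped, with means of 9.31 ± 0.807 in KO livers and 9.02 ± 0.881 in WT livers. Plaur stood at 9.18, 11.2 and 3.99 per 1000 myeloid marker counts in KO livers and at 18.6, 22.5 and 12.1 in WT livers, without overlap. Plat stood at 2.13, 4.14 and 5.52 in KO livers and at 14.2, 25.1 and 9.35 in WT livers on the same scale, also without overlap. Which genes overlapped depended on the marker list. Per 1000 neutrophil marker counts Plaur stood at 672, 297 and 154 in KO livers and at 416, 903 and 419 in WT livers, which overlap. Per 1000 endothelial marker counts Plau stood at 7.15, 3.4 and 8.77 in KO livers and at 17.6, 11.8 and 14.2 in WT livers. Per 1000 stellate cell and fibroblast marker counts it stood at 3.31, 2.07 and 3.93 in KO livers and at 7.64, 6.67 and 7.31 in WT livers. On both of these scales every KO liver lay below every WT liver for Plau. These ratios are descriptions without a test, and the part of cell composition in the falls was not tested.

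Plg stood at 17.6, 17.9 and 17.4 counts per 1000 hepatocyte marker counts in KO livers and at 12.7, 12.1 and 14.8 in WT livers. The KO livers were nearly alike and above every WT liver. Serpinf2 stood at 7.5, 6.89 and 7.72 in KO livers and at 9.55, 8.21 and 9.62 in WT livers on that scale. The antiplasmin gene was therefore lower relative to the hepatocyte markers, whereas its CPM values overlapped. F3 stood at 17.9, 21.03 and 15.3 per 1000 endothelial marker counts in KO livers and at 6.56, 8.33 and 7.42 in WT livers. Per 1000 hepatocyte marker counts F3 stood at 0.0483, 0.0686 and 0.0448 in KO livers and at 0.0321, 0.042 and 0.0338 in WT livers. The KO mean over the WT mean of F3 was thus 2.43 on the endothelial scale and 1.5 on the hepatocyte scale. Thbd stood at 31.2, 66.6 and 21.1 in KO livers and at 51.9, 76.6 and 59.1 in WT livers on the endothelial scale. The second KO liver again lay within the WT range.

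**Figure D4:**
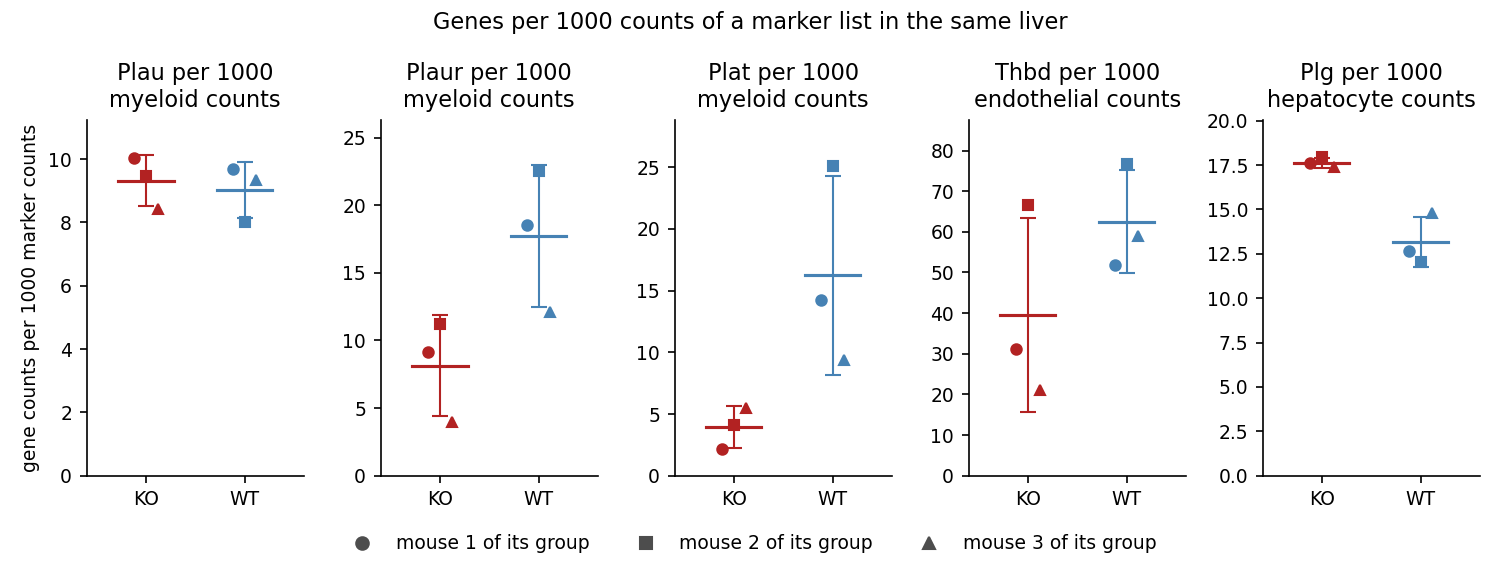
Counts of a gene per 1000 counts of a marker list in the same liver (vertical axes, each from 0) in KO livers (red, left) and WT livers (blue, right). Points are livers, lines means and bars SD. Plau overlaps between groups per myeloid marker count, Plaur and Plat are lower in all 3 KO livers, and Plg is higher in all 3 per hepatocyte marker count. The myeloid marker counts include Lyz2.

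Among other genes of fibrinolysis more rose than fell in KO livers. Of 16 listed, 14 were tested, 7 rose, 2 fell and 5 did not pass (median log2 0.48), against a median of −0.01 over all genes. Over all tested genes 11.9% were higher and 13.1% lower. The hepatocyte markers had a median log2 of 0.55, slightly above that of this list. The largely hepatic plasma proteins Klkb1, the plasma prekallikrein, Hrg, which binds plasminogen, and Cpb2, which removes plasminogen binding sites from fibrin, rose. Klkb1 averaged 141 ± 5.06 CPM in KO livers and 45.7 ± 12.04 CPM in WT livers (log2 1.62, adjusted p = 0.0012). Hrg averaged 1003 ± 95.2 CPM in KO livers and 429 ± 78.2 CPM in WT livers (log2 1.22, adjusted p = 0.0021), and Cpb2 326 ± 27.3 CPM in KO livers and 207 ± 13.1 CPM in WT livers (log2 0.65, adjusted p = 0.00653). Anxa2, a cell-surface receptor for Plat and plasminogen, fell to 32.8, 10.5 and 64.4 CPM in KO livers, against 338, 219 and 141 CPM in WT livers. Its groups did not overlap (log2 −2.69, adjusted p = 0.0128). The log2 value was −3.42 without the third KO liver, and the adjusted p was 0.0511 without the first KO liver. Mrc2, a collagen receptor that associates with Plaur, averaged 4.27 ± 0.255 CPM in KO livers and 6.95 ± 0.993 CPM in WT livers (adjusted p = 0.0251). Mrc2 (log2 −0.7) did not pass without the first KO liver (0.0851), the second KO liver (0.0505), the first WT liver (0.0832) or the second WT liver (0.0803). Library totals gave 4 higher and 3 lower, and without the second or the third WT liver 4 genes of the list rose. No gene of the list fell without the first KO liver (adjusted p 0.0511 for Anxa2 and 0.0851 for Mrc2), and 1 fell without the second KO, first WT or second WT liver. Klkb1 and Anxa2 share exonic bases with other annotated genes, so their counts are uncertain to that extent.

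Clotting factors and their plasma inhibitors were tested as a list of 21, of which 10 rose and 2 fell (median log2 0.45), and 7 and 3 with library totals. Over all tested genes 11.9% were higher and 13.1% lower, and the hepatocyte markers had a median log2 of 0.55. F7, the partner of tissue factor, averaged 132 ± 19.1 CPM in KO livers and 51.2 ± 4.8 CPM in WT livers (log2 1.37, SE 0.14, adjusted p = 0.000755). F11, which acts in the intrinsic pathway, averaged 53.4 ± 5.08 CPM in KO livers and 25.7 ± 2.58 CPM in WT livers, F13b 202 ± 3.59 CPM in KO livers and 106.5 ± 14.02 CPM in WT livers, and F9 239 ± 21.2 CPM in KO livers and 131 ± 8.34 CPM in WT livers. The vitamin K-dependent zymogen F9 and the transglutaminase carrier subunit F13b rose by log2 0.87 and 0.92, and F11 by 1.05. The genes that fell were Pros1, protein S, a cofactor of Tfpi and of activated protein C, and F13a1, the catalytic factor XIII subunit made by macrophages and platelet precursors. Pros1 averaged 65.3 ± 2.57 CPM in KO livers and 91.97 ± 15.5 CPM in WT livers (log2 −0.49, adjusted p = 0.0331). It passed in the leave-one-out fits without the second WT liver only, and the adjusted p was 0.11, 0.0711 and 0.0571 without the 3 KO livers in turn and 0.0863 and 0.118 without the first and the third WT livers. F13a1 stood at 0.0479, 0.337 and 0.394 CPM in KO livers and at 3.42, 0.822 and 1.65 CPM in WT livers (adjusted p = 0.0184). Its log2 value of −2.91 was −2.23 without the first WT liver (adjusted p = 0.0569), and the adjusted p was 0.0548 without the first KO liver. F13a1 shares exonic bases with Gm30489 on the opposite strand, so its counts are uncertain to that extent. The fibrinogen genes, whose product is the target of plasmin, were looked up after their values were seen. Fga stood at 4398, 6781 and 3140.3 CPM in KO livers and at 6768, 2062 and 5454 CPM in WT livers. The groups overlapped widely (95% interval of the log2 fold change −0.98 to 0.99, adjusted p = 0.996).

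Among 12 receptors and platelet genes 9 were tested, 2 fell and 0 rose by each of edgeR, DESeq2 and limma-voom, nor did any rise at an unadjusted p under 0.05 (0 genes). The median log2 value was −0.52. With library totals 5 fell, and without the first KO liver or any 1 of the WT livers 1 fell. Over all tested genes 13.1% were lower and 11.9% higher, and with 9 genes the edgeR counts lie near those shares. F2rl1, the protease-activated receptor cut by the tissue factor and factor VIIa complex, stood at 0.479, 0.385 and 0.0493 CPM in KO livers and at 4.33, 6.53 and 2.87 CPM in WT livers. The groups did not overlap (log2 −3.87, SE 0.56, adjusted p = 0.00257). The third KO liver lay below the level of 3 counts (0.119 to 0.148 CPM), so the KO level of F2rl1 rests on few reads. Procr, the receptor that presents protein C to the thrombomodulin complex, averaged 1.5 ± 0.214 CPM in KO livers and 2.78 ± 0.295 CPM in WT livers (log2 −0.88, adjusted p = 0.0326). Procr passed without the third KO liver. Its adjusted p was 0.0953 and 0.0787 without the first and second KO livers, and 0.0546, 0.112 and 0.0935 without the 3 WT livers in turn.

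Among proteases of the matrix and their inhibitors, some of which plasmin activates, more genes fell than rose. Of 18 listed 16 were tested, 8 fell, 3 rose and 5 did not pass (median log2 −1.07), and 12 fell and 1 rose with library totals. Over all tested genes 13.1% were lower and 11.9% higher. The summed level of the list was nevertheless higher, at 767 ± 10.96 CPM in KO livers and 663 ± 6.72 CPM in WT livers. This sum includes Hgfac, with means of 357 CPM in KO livers and 139 CPM in WT livers. That difference is larger than the difference of the whole sum, so the other genes of the list summed to less in KO livers. Adam8, a leukocyte metalloprotease, averaged 0.633 ± 0.307 CPM in KO livers and 9.98 ± 2.47 CPM in WT livers (log2 −3.97, adjusted p = 0.000501). Timp1, an inhibitor of matrix metalloproteases, averaged 0.405 ± 0.28 CPM in KO livers and 3.39 ± 0.398 CPM in WT livers (log2 −3.05), and Adamts1 averaged 31.8 ± 4.24 CPM in KO livers and 73.02 ± 13.2 CPM in WT livers (log2 −1.2). The genes that rose were Hgfac, the activator of hepatocyte growth factor, its receptor Met, and Mmp19. Met stood at 106 ± 11.2 CPM in KO livers and at 77.005 ± 5.42 CPM in WT livers (adjusted p = 0.0252), and it did not pass without the first or second KO liver or the first or the third WT liver. Mmp19 stood at 83.6 ± 2.29 CPM in KO livers and at 55.3 ± 12.2 CPM in WT livers (adjusted p = 0.0313), and it did not pass without any 1 of the KO livers. Hgfac averaged 357 ± 32.7 CPM in KO livers and 139 ± 21.5 CPM in WT livers (log2 1.36, adjusted p = 0.000965). Without the first KO liver 4 genes fell and 1 rose, without the second KO liver 11 fell and 1 rose, and without the first or second WT liver 5 fell. Adam8 overlaps the exons of Gm16201, and Mmp19 those of Tmem198b and Gm47093, all on the opposite strand, which makes their counts uncertain.

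Of 19 AP-1, EGR, KLF and NF-kB factors, families that include known regulators of the F3, Plau and Plaur genes, 18 were tested and 15 fell. None rose by any of edgeR, DESeq2 and limma-voom (0 genes at an unadjusted p under 0.05), and the median log2 value was −1.53. Over all tested genes 13.1% were lower and 11.9% higher. Klf6 averaged 29.1 ± 6.26 CPM in KO livers and 115 ± 10.4 CPM in WT livers (log2 −1.99, adjusted p = 0.000498), and Fosl2, an AP-1 subunit, 14.7 ± 3.32 CPM in KO livers and 42.4 ± 0.259 CPM in WT livers (log2 −1.52). Klf4 averaged 1.99 ± 0.44 CPM in KO livers and 9.99 ± 2.6 CPM in WT livers (log2 −2.33). Fosl1 stood at 0.575, 0.433 and 0.444 CPM in KO livers and at 4.17, 8.99 and 2.39 CPM in WT livers, with a log2 value of −3.4 that was −2.73 without the second WT liver. Fosl1 shares exonic bases with Ccdc85b on the opposite strand. These factors were lower in livers where Plaur, Plau and Plat were lower and where F3 was higher, and no link between them was tested.

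**Figure D5:**
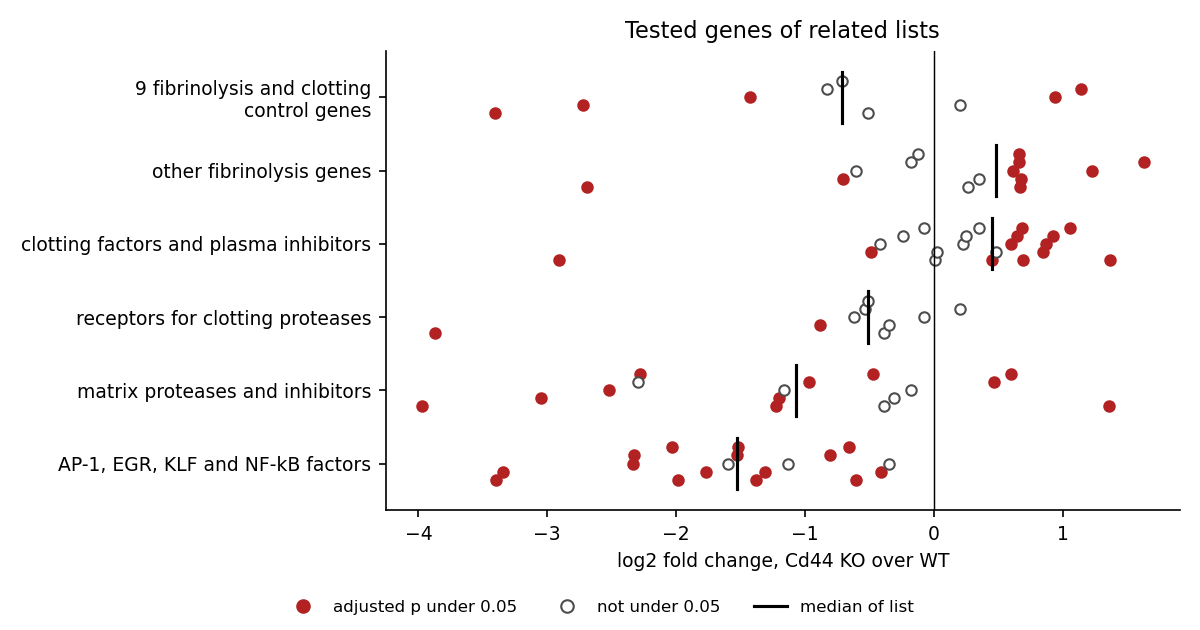
Log2 fold change of KO over WT (horizontal axis) for each tested gene of 6 lists (rows). Red points have an adjusted p under 0.05, open points do not, and black bars are list medians. The medians are −0.72 for the 9 genes, 0.48 for other fibrinolysis genes, 0.45 for clotting factors, −1.07 for matrix proteases and −1.53 for transcription factors.

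For the 5 genes that passed, the protein-coding genes with the most similar course over the 6 livers were sought among 13034 tested. Likeness was the Euclidean distance between log2 CPM values centred on each gene's mean, and it describes these livers without a test. Plau lay closest to Ikzf1 (distance 0.1). Ikzf1 averaged 3.04 ± 0.726 CPM in KO livers and 7.98 ± 0.836 CPM in WT livers. Plaur lay closest to Tmem154 (0.48) and Rap1gap2 (0.52), and Plat to Muc13 (0.42) and Gml2 (0.48). Muc13 and Gml2 each averaged 0.0493 ± 0.0854 CPM in KO livers, below the level of 3 counts (0.119 to 0.148 CPM). In WT livers they averaged 1.12 and 1.31 CPM. Their log2 values of −4.37 and −4.58 were −7.63 and −7.84 without the third KO liver, so their likeness to Plat rests on few reads. Plg lay closest to Ttc36 (0.15) and Slc26a6 (0.18), and F3 to Grin3b (0.12) and Mocs1 (0.22). Ttc36 averaged 99.1 ± 13.6 CPM in KO livers and 55.03 ± 10.1 CPM in WT livers. The neighbours of Plaur and Plat thus lay farther off than those of Plg and F3.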

How the data were processed

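Raw read counts per Ensembl gene, 1 column per liver, were deposited by the authors. The submitters' processing notes name GRCm38.p6, featureCounts 1.5.0-p3, HISAT2 2.0.5 and StringTie 1.3.3b, without roles. How strand and multi-mapping reads were handled is not given in the sources used here. Per the labels' protocols, RNA was selected with poly-T beads and primed with random hexamers. Genes were matched to GENCODE M21 (54495 of 54532). TMM scaling followed filterByExpr, and edgeR 4.0.16 gave the main test (glmQLFTest, no covariates, Benjamini-Hochberg over all genes, threshold 0.05). CPM use TMM-scaled totals and RPKM the union exon length. SE is the log2 value divided by the root of F. Ratios added 0.5 counts. The alternatives used DESeq2 1.42.0 and limma 3.58.1, among others. A limit of 3 counts was 0.119 to 0.148 CPM.

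The 9 genes and the lists (5 pathway, 10 marker) were chosen with earlier results of these data known. Named beside them were up to 4 genes per pathway list by smallest p among those that passed, genes completing a count of 5 or fewer, and the 2 nearest profiles; 1 gene chosen by this rule is not reported here. The symbol Tf was not matched. Livers of a group differed beyond sampling noise (chi-square per degree of freedom at least 24.5). That each library is a separate mouse rests on the labels; otherwise p-values measure technical spread. Steps were tested on simulated data.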

Additional observations from a re-analysis of the deposited data

How the results depend on the processing

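Plaur, Plat, Plau and Plg kept their direction and passed in all 15 alternatives that gave each a value (highest adjusted p 0.00476, 0.0135, 0.0248 and 0.0394). The count of lower genes among the 9 was 3, and 4 with DESeq2 and with limma-voom, which added Serpine2. It was 5 with library totals, with at least 50 counts in 3 libraries and at an adjusted p under 0.1. When each liver was left out it was 3 to 4. The count of higher genes was 2, and 1 at an adjusted p under 0.01; it was 1 to 2 when each liver was left out, F3 being lost. Over all genes, 791 were lower and 724 higher at an adjusted p under 0.01, 3698 and 904 with library totals, and 935 were lower with endothelial scaling. Leaving out each liver gave 1183 to 1837 lower and 1086 to 1576 higher. The lowest counts were 1183 and 1113 without the first KO liver, and 1189 and 1086 without the second WT liver. The log2 fold change of Serpinf2 turned to −0.052 with library totals. Library totals moved the median of all genes to −0.26 and endothelial scaling moved it to 0.2. The cause of these changes was not tested, apart from the fewer samples when a liver is left out. Mouse numbers did not pair the livers (correlations of deviations −0.03, 0.04 and −0.02), and not every liver correlated best with its own number. These numbers come from the sample titles. In the column names the livers of the first pair carry different numbers, so this check and the replicate block follow the titles only. With the replicate block 3 of the 9 genes were lower and 2 higher, and 1648 and 1438 over all genes; 1 other fibrinolysis gene fell and 3 rose, 1 clotting factor fell, and 2 endothelial markers were lower. Among the 9 genes, low counts limit Serpine2 (28 to 47 in KO livers, 76 to 77 in WT livers). In KO livers they also limit Plat (10 to 36 counts), Plaur (26 to 43) and Plau (32 to 55). Of the genes named beside them, F2rl1, F13a1, Muc13 and Gml2 had a KO value or KO mean below the level of 3 counts. Timp1 and Fosl1 were low in KO livers too.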
